A study of Homo sapiens with 8 samples.

Results

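BCR, ABL1 and 7 genes whose proteins act with the BCR-ABL1 kinase were followed through the nuclear RNA of HAP1, a near-haploid human cell line that came from chronic myeloid leukemia cells (KBM-7) and carries the BCR-ABL1 fusion. The 9 genes are BCR, ABL1, CRKL, GRB2, GAB2, SOS1, CBL, STAT5A and STAT5B. They come from a fixed list that was set with earlier results of these data known. Each was found once among the 62635 gene loci of the short-read table. GENCODE release 44 names 70 of the 301771 transcripts of the long-read table after them. Loci that the assembly numbered itself (MSTRG identifiers) were named by span: the gene of the same strand that overlapped most gave the name if the Jaccard index reached 0.5.

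Nuclei of untreated cells were extracted with urea and detergent and centrifuged. The pellet was the chromatin fraction and the supernatant the nucleoplasm fraction. Short-read libraries of both fractions came from 3 independent cultures (n = 3 each), and 2 long-read libraries were made from chromatin RNA only. All 8 libraries come from this 1 line, with no treatment and no other genotype. The study calls its long-read libraries biological replicates. Fractions were taken from the sample titles, because another label names chromatin for the nucleoplasm libraries as well. The short-read libraries held 38895027 to 43804918 recovered reads in chromatin and 75737601 to 79523938 in nucleoplasm.

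BCR-ABL1 joins the 5′ exons of BCR to ABL1 from its second exon on, which leaves the ABL1 tyrosine kinase active without its normal control. The adaptor GRB2 binds a phosphorylated tyrosine in the BCR part and brings in SOS1, which loads RAS with GTP, and GAB2, which recruits PI3-kinase. CRKL is a main substrate of the kinase, CBL is a ubiquitin ligase that it phosphorylates, and STAT5A and STAT5B carry the signal to the nucleus as transcription factors. HAP1 cells are known to grow attached and to have lost the features of blood cells.

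The reference exon ends at which the fusion usually joins are shown first, since rows of both tables lie on a single chromosome and no row can hold a fused transcript. Reads of a BCR-ABL1 RNA and of any unfused BCR or ABL1 RNA are therefore counted together under BCR and ABL1. The study found the BCR-ABL1 fusion in its HAP1 long reads by a separate search. A report that it cites describes KBM-7 as lacking normal transcripts of both genes. Capitals mark exon bases and lower case the neighboring intron. BCR exon 13 ends within chr22:23289592-23289631, BCR exon 14 within chr22:23290384-23290423 and ABL1 exon 2 starts within chr9:130854054-130854093 (hg38, plus strand).
BCR exon 13 end: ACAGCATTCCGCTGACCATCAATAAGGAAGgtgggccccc
BCR exon 14 end: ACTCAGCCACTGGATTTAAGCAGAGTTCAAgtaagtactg
ABL1 exon 2 start: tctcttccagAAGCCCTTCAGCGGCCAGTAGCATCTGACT

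ABL1 has alternative first exons, 1a and 1b, and its long-read abundance was assigned to a transcript model with only 1 of them. Their coding parts are shown with the start codon in capitals. Exon 1b lies at the start of the gene (chr9:130714320-130714455) and exon 1a farther downstream (chr9:130835447-130835525).
ABL1 exon 1b coding part: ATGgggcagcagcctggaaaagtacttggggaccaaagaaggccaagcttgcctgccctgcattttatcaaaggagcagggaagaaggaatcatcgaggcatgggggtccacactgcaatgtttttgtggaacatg
ABL1 exon 1a coding part: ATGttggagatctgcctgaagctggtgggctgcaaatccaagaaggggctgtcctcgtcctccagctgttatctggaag

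BCR exon 16 is a coding exon of 132 bases (within chr22:23295004-23295175, which adds 20 intron bases on each side) that separates the leading long-read isoforms of BCR. Capitals mark the exon.
BCR exon 16: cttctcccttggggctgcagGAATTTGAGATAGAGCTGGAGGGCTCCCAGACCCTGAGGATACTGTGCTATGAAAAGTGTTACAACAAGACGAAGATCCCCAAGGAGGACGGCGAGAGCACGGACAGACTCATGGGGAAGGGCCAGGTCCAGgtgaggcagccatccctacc

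The shortest tested loci within introns of a member on its own strand, in CBL intron 2 (chr11:119233698-119233935, plus strand) and SOS1 intron 1 (chr2:39098149-39098445, minus strand), are shown in the direction of transcription because their reads came nearly all from chromatin. Capitals mark AATAAA, the usual polyadenylation signal, on the strand of the locus. It occurred once in the CBL locus, close to the 5′ end of the locus, and not in the SOS1 locus. Among all 287 tested loci of 200 to 300 bases within introns, 24.4% held it on their strand.
CBL intron 2 locus: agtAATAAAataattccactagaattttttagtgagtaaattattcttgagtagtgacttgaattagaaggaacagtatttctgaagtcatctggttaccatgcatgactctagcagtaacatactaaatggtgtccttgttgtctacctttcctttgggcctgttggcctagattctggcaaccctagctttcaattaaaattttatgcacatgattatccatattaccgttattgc
SOS1 intron 1 locus: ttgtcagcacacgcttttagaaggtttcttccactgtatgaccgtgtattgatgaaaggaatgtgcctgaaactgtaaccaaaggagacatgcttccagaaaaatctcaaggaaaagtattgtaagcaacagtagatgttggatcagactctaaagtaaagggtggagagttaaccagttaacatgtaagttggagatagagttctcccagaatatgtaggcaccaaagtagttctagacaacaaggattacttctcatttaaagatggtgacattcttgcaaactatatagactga

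To ask how RNA of these genes divides between chromatin and nucleoplasm, normalized counts (reads divided by the authors' DESeq2 size factors) of the 3 chromatin libraries were compared with those of the 3 nucleoplasm libraries by limma on log2(normalized count + 1). P-values were adjusted by Benjamini-Hochberg over the 26066 genes tested. Of the 9 genes, 7 were lower in chromatin at an adjusted p-value under 0.05, 1 (SOS1) was higher, and 1 (CRKL) did not pass. Among all tested genes 45.2% were lower and 44.2% higher in chromatin by this rule, and among 12493 protein-coding genes 57.5% were lower. None of the 9 passed 4-fold in either direction, which 21.2% of all tested genes did toward chromatin and 8.47% toward nucleoplasm. The median log2 fold change of the 9 genes was -0.88, beside -0.39 for protein-coding genes and -0.02 for all tested genes. Values of the fractions did not overlap for 8 of the 9, 7 lower and 1 higher in chromatin, and such separation held for 90.6% of all tested genes.

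These fold changes are relative to the rest of each library. Scaling the libraries to the same ERCC total (synthetic RNAs added in equal volume to each fraction) moved the median of all tested genes to -1.33 on the log2 scale, and scaling to the same total count moved it to 0.44. In bulk RNA, fewer cells that hold an RNA and less of it per cell cannot be told apart. P-values measure the spread between these libraries.

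BCR (ENSG00000186716, chr22:23179704-23318086, plus strand), which gives the fusion its promoter and 5′ exons, had 751, 697 and 769.5 normalized counts in the chromatin libraries. In nucleoplasm it had 1287, 1355 and 1437. All nucleoplasm libraries stood above all chromatin libraries. BCR was 1.84-fold higher in nucleoplasm (log2 fold change of chromatin over nucleoplasm -0.88 ± 0.06, SE, adjusted p = 1.65e-06, limma), and 32.6% of protein-coding genes had a lower log2 fold change.

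ABL1 (ENSG00000097007, chr9:130713016-130887675, plus strand), the kinase gene, had 932, 906 and 937 normalized counts in chromatin. The nucleoplasm libraries had 1351, 1408 and 1470.0. Again the fractions did not overlap, with less difference than for BCR. The log2 fold change was -0.61 ± 0.05 (SE, adjusted p = 4.96e-06, limma), which is 1.52-fold more in nucleoplasm.

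The ratio of ABL1 to BCR within a library does not depend on its scaling. On the log2 scale it was 0.31, 0.38 and 0.28 in chromatin and 0.07, 0.06 and 0.03 in nucleoplasm. The mean ratio was 0.32 ± 0.05 (SD, n = 3) in chromatin and 0.05 ± 0.02 (SD, n = 3) in nucleoplasm, a difference of 0.27 with every chromatin library above every nucleoplasm library. The exact two-sided permutation p was 0.1. No smaller p exists for 3 against 3 libraries, so a threshold of 0.05 is out of reach.

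Part of the BCR count cannot be assigned to BCR with certainty. Reads were 50 bases long, and 21.1% of the 6734 windows of 50 bases in the canonical BCR transcript occur unchanged in transcripts of other genes, 15 in all, among them the BCR pseudogenes BCRP3 and BCRP4. All these windows begin in 6 exons from exon 17 to exon 23, behind the exons that the fusion usually keeps. No window of ABL1 was shared.

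The adaptors differed among themselves more than BCR and ABL1 did. CRKL (chr22:20917407-20953747), an SH2 and SH3 domain adaptor, had 10625, 7861 and 9237 normalized counts in chromatin and 9702, 9845 and 9861 in nucleoplasm. The nucleoplasm values lay within the range of the chromatin values, and the log2 fold change of -0.10 ± 0.10 (SE) did not pass (adjusted p = 0.366, limma). Without chromatin replicate 1 it passed at -0.20 (adjusted p = 0.0328), and without chromatin replicate 2 it was 0.015 and did not pass. It was 0.37 (adjusted p = 0.00201) with libraries scaled to the same total, so its direction depended on the scaling.

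GRB2 (chr17:75318076-75405709), the adaptor that links the kinase to RAS, was the most nucleoplasmic of the 9 genes. It had 1401, 1160.1 and 1346 normalized counts in chromatin against 4957, 4818 and 4864 in nucleoplasm. The fractions lay far apart, and libraries within each were close to one another. GRB2 was 3.76-fold higher in nucleoplasm (log2 fold change -1.91 ± 0.07, SE, adjusted p = 3.3e-08, limma), and 7.01% of protein-coding genes had a lower log2 fold change.

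GAB2 (chr11:78215293-78418348), a docking protein for PI3-kinase and the phosphatase SHP2, had the longest span of the set, 203056 bases. It had 4984, 4986 and 5163 normalized counts in chromatin and 7251, 7753 and 7243 in nucleoplasm. The groups did not overlap, and the log2 fold change was -0.56 ± 0.05 (SE, adjusted p = 4.25e-06, limma). With libraries scaled to the same total it was -0.09 and did not pass (adjusted p = 0.148).

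SOS1 (chr2:38979055-39124345), the RAS exchange factor, was the gene of the set with more RNA in chromatin. Its chromatin libraries had 8879, 10198 and 9286 normalized counts, all above the 7279.5, 7106 and 6956 of nucleoplasm. The log2 fold change was 0.41 ± 0.06 (SE, adjusted p = 0.000157, limma), 1.33-fold. On the same ERCC total it was -0.92 (adjusted p = 5.62e-06), where the median of all tested genes was -1.33, so its direction reversed while it stayed above that median.

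CBL (chr11:119206298-119313926), the ubiquitin ligase, had 1 library apart from the others. Chromatin replicates 1 and 3 had 4174 and 3985 normalized counts and replicate 2 had 1202, against 7295, 6302 and 6499 in nucleoplasm. All chromatin libraries were below all nucleoplasm libraries. The log2 fold change was -1.30 ± 0.42 (SE, adjusted p = 0.0167, limma), and without chromatin replicate 2 it was -0.71 (adjusted p = 2.95e-05). The value in replicate 2 was 0.302 of the lower of the other chromatin values, and 3 of 6933 protein-coding genes with a chromatin mean of at least 1000 normalized counts were that low or lower there, CBL included. The call was lost with DESeq2 on recovered reads (log2 fold change -1.01, adjusted p = 0.0642) and with libraries scaled to the same total (-0.84, adjusted p = 0.0748).

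The transcription factors STAT5A and STAT5B, which bind DNA as dimers after phosphorylation by JAK kinases or BCR-ABL1, are neighbors on chromosome 17 and are transcribed away from each other. STAT5A (chr17:42287547-42311943) had the fewest reads of the set, with 198, 174 and 191 normalized counts in chromatin and 428, 408 and 429 in nucleoplasm. STAT5B (chr17:42199177-42276707) had 2113, 1917 and 2180.1 in chromatin and 4066, 4069 and 4027 in nucleoplasm. Neither gene's fractions overlapped. The log2 fold change was -1.17 ± 0.08 for STAT5A and -0.97 ± 0.06 for STAT5B (SE, adjusted p = 8.31e-07 and 3.72e-07, limma).

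STAT5B exceeded STAT5A by a log2 ratio of 3.46 ± 0.05 in chromatin and 3.26 ± 0.05 in nucleoplasm (SD, n = 3). The difference of 0.19 had an exact two-sided permutation p of 0.1, again the smallest possible, with every chromatin library above every nucleoplasm library. These paralogs share sequence. Of the windows of 50 bases in the canonical transcripts, 15.1% of those of STAT5A occur in STAT5B and 10.1% of those of STAT5B in STAT5A, including every window that begins in STAT5A exon 7, so some reads could be counted for either gene.

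**Figure D1:**
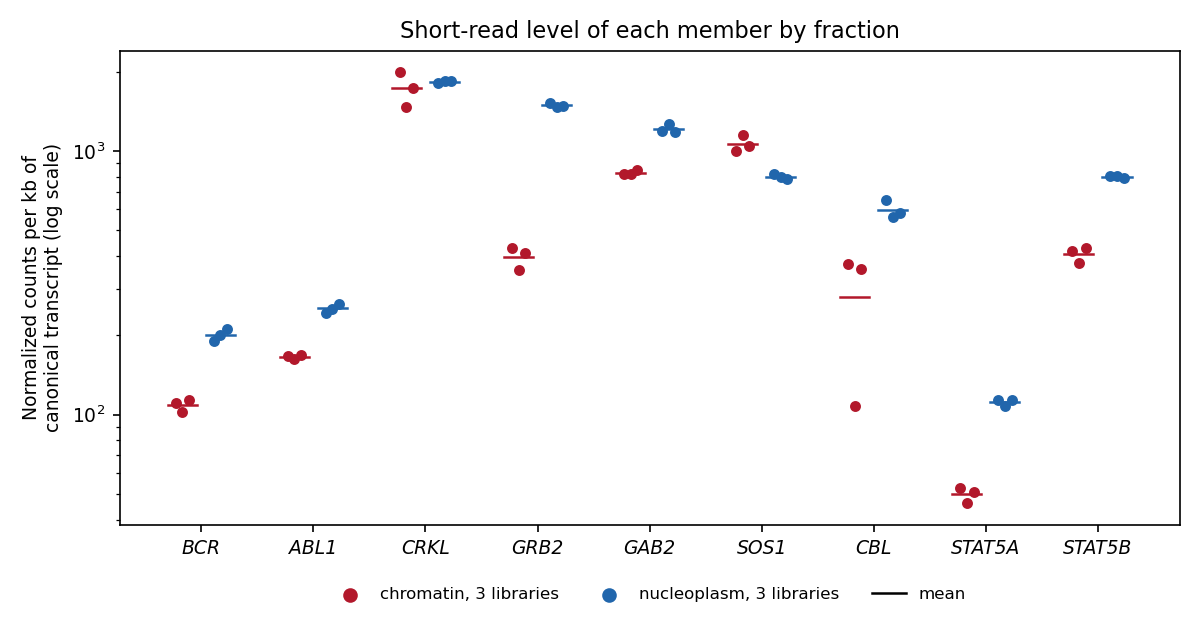
Short-read level of each gene, in normalized counts per kb of its canonical transcript (y axis, log scale), with 3 chromatin libraries (red), 3 nucleoplasm libraries (blue) and the group means (lines). CRKL is highest and STAT5A lowest in both fractions, SOS1 is the gene whose chromatin points all lie above its nucleoplasm points, and 1 chromatin library of CBL lies apart.

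Levels were compared between genes as normalized counts per kb of the canonical transcript. In chromatin the order was CRKL (1730 per kb, mean of 3 libraries), SOS1 (1062), GAB2 (826), STAT5B (408), GRB2 (398), CBL (279), ABL1 (166), BCR (109) and STAT5A (49.8). Libraries of STAT5B and GRB2, of GRB2 and CBL, and of CBL and ABL1 overlapped, so these neighbors were not separated beyond their spread. In nucleoplasm the order was CRKL (1835 per kb), GRB2 (1491), GAB2 (1214), SOS1 (799), STAT5B (798), CBL (599.8), ABL1 (253), BCR (200.5) and STAT5A (112), and only SOS1 and STAT5B overlapped. ABL1 stood above BCR in both fractions, and both were below all of the 7 partners except STAT5A, by their means, with the lowest chromatin library of CBL below all those of ABL1 and within the range of BCR. GRB2 moved most between the orders, from the fifth place to the second.

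The genes most like BCR and ABL1 across the 6 libraries were found among the 12493 tested protein-coding genes by the Euclidean distance between log2 profiles centered on their own means. For BCR these were SOX12, MYBBP1A and SYS1-DBNDD2, at distances of 0.04, 0.05 and 0.05. For ABL1 they were SLC25A38, TMEM106C and ZNF710, each at 0.04. With 6 libraries in 2 fractions this likeness is mostly that of the fold change, which was -0.89, -0.86 and -0.90 for the first group and -0.61, -0.61 and -0.59 for the second.

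Loci within the genes were described beside the genes. The assembly listed 5 tested loci that lay wholly inside a member on the same strand and off its exons, and 4 of them were over 4-fold higher in chromatin, in GRB2, SOS1, CBL and STAT5B. Among all 2214 tested loci within introns on the same strand 82.1% were called so, with a median log2 fold change of 3.74. The filter favors such calls, because a locus low in nucleoplasm is tested only if chromatin brings it past 10 normalized counts. The loci in GRB2, SOS1 and CBL entered in this way, as did loci below with nucleoplasm values under 10, so their values are descriptions and neither the count nor the share supports a difference. The STAT5B locus was over 10 in all libraries. The locus in CBL intron 2, whose sequence is given above, had 28.0, 22.8 and 20.9 normalized counts in chromatin and 0.878, 0.861 and 0 in nucleoplasm. It rests on 62 reads against 2, a ratio of 41.5 after scaling with an exact 95% counting interval of 11.02 to 350.4.

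The locus in SOS1 intron 1, at the annotated pseudogene HSPE1P13, had 43.1, 48.0 and 42.8 normalized counts in chromatin and 0.878, 3.44 and 1.69 in nucleoplasm. It rests on 116 reads against 7 (ratio 22.2, exact 95% counting interval 10.4 to 56.4) and was tested only through its chromatin values. None of its windows of 50 bases occur in transcripts of other genes. A second, unnamed locus (chr2:39094692-39126003), whose span holds the first, reaches over the first exon of SOS1 and past its start, with 232, 257 and 214 normalized counts in chromatin and 8.78, 7.75 and 9.29 in nucleoplasm.

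In GRB2 intron 2, a locus at a lncRNA annotated on the same strand (ENSG00000264853, chr17:75370947-75373736) had 161, 173 and 126 normalized counts in chromatin and 4.39, 4.30 and 5.07 in nucleoplasm. This locus was tested only through its chromatin values. In STAT5B intron 1, the locus at ENSG00000278829 (chr17:42270517-42275571) had 295, 348 and 299 normalized counts in chromatin and 19.3, 17.2 and 19.4 in nucleoplasm (log2 fold change 4.00 ± 0.12, SE, adjusted p = 1.47e-08, limma). This STAT5B locus also covers another lncRNA annotated on the same strand, ENSG00000236194. Of its windows of 50 bases, 28.0% occur in ENSG00000236194, so its count cannot be given to ENSG00000278829 alone. A further unnamed locus overlapping the 3′ end of GRB2 and reaching beyond it (chr17:75305635-75324345) had 46.6, 55.2 and 53.8 in chromatin against 7.90, 5.17 and 7.60.

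BCR and ABL1 held few such loci. Inside BCR, the locus at the pseudogene FBXW4P1 in intron 4 had 13.98, 12.0 and 9.88 normalized counts in chromatin and 16.7, 13.8 and 10.98 in nucleoplasm. The fractions overlapped and the log2 fold change of -0.19 ± 0.25 (SE) did not pass (adjusted p = 0.483, limma). At the BCR start, a locus of 255 bases on the opposite strand, at the annotated pseudogene BCRP8 (chr22:23179918-23180172) had 10.5, 12.0 and 13.2 in chromatin and 2.63, 0.861 and 0.845 in nucleoplasm, on 31 reads against 5 (ratio 8.30, exact 95% counting interval 3.20 to 27.3). This BCRP8 locus was tested only through its chromatin values. Inside ABL1 no further locus on its strand was listed by the short-read assembly. In the stretch before ABL1, 3 unnamed loci lay on its strand. They lie behind EXOSC2, a gene of the same strand that ends 7.59 kb upstream of ABL1. EXOSC2 had a log2 fold change of -0.06 ± 0.06 (SE, adjusted p = 0.371, limma). Whether these loci hold RNA of EXOSC2 or of ABL1 was not tested. The farthest, 5.10 kb upstream, had 631, 638 and 708 normalized counts in chromatin and 609.9, 610.4 and 667 in nucleoplasm, which overlapped (log2 fold change 0.07 ± 0.07, SE, adjusted p = 0.378, limma). The nearer loci, 4.53 and 3.13 kb upstream, had 51.2, 74.5 and 53.8, and 175, 171 and 176 normalized counts in chromatin. In nucleoplasm they had 28.96, 24.1 and 18.6, and 67.6, 59.4 and 89.6 (log2 fold changes 1.29 ± 0.22 and 1.28 ± 0.15, SE, adjusted p = 0.000444 and 4.4e-05, limma).

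Loci on the other strand or beside a member were mixed. In GAB2, a locus on the opposite strand that overlaps its exons, at the lncRNA ENSG00000288538, had 38.4, 40.8 and 40.6 normalized counts in chromatin and 6.14, 7.75 and 3.38 in nucleoplasm. The long noncoding RNA LINC02728, 5.63 kb upstream of GAB2 on its strand, had 542, 468 and 587 in chromatin and 57.9, 45.6 and 37.2 in nucleoplasm. Both had higher values in every chromatin library than in any nucleoplasm library, and the first was tested only through its chromatin values. In GRB2 intron 2, the ribosomal protein pseudogene RPL36AP7 on the opposite strand had 238, 180.1 and 209 in chromatin and 1209, 1230.2 and 1277 in nucleoplasm, lower in chromatin as GRB2 was. Reads of a pseudogene of this kind may come from its near-identical parent gene, so its level is uncertain.

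**Figure D2:**
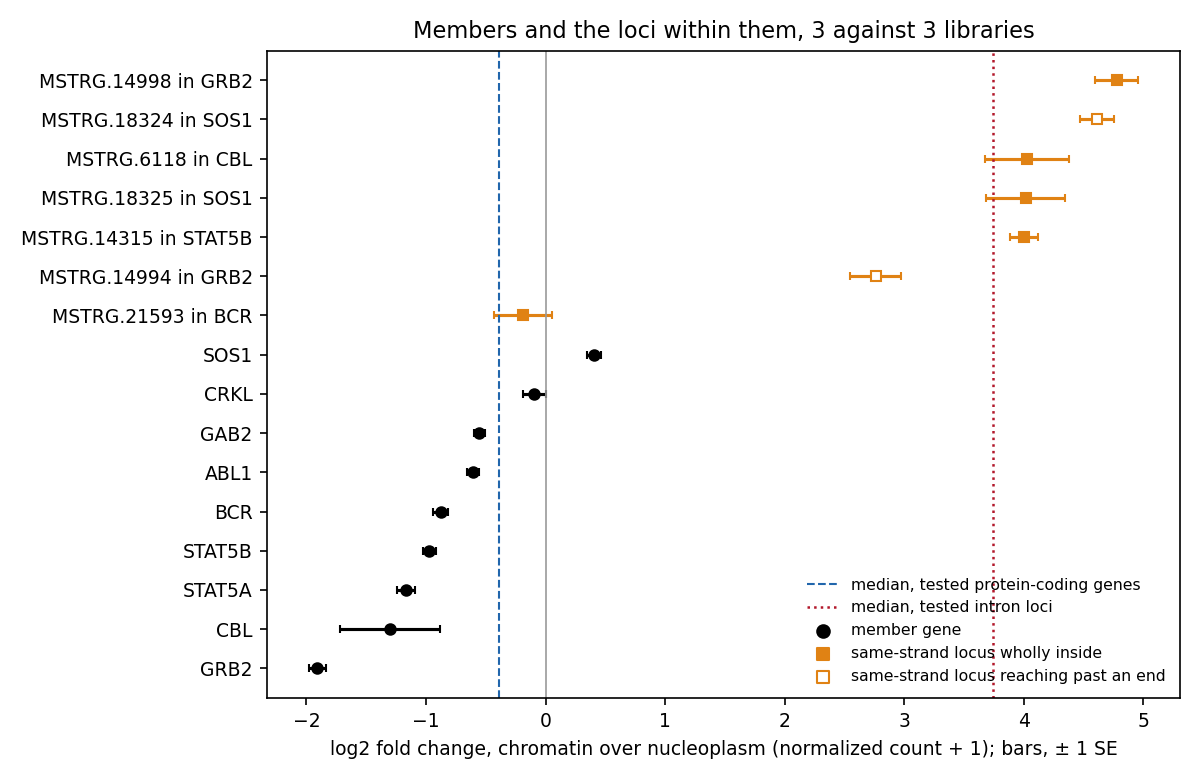
Log2 fold change of chromatin over nucleoplasm (x axis, ± 1 SE, 3 against 3 libraries) for the 9 genes (black circles) and for tested same-strand loci within them (filled squares) or overlapping them and reaching past an end (open squares). Dashed and dotted lines are the medians of tested protein-coding genes (-0.39) and tested intron loci (3.74). Apart from the BCR locus at -0.19, the loci lie at 2.76 or above, and all the genes lie at 0.41 or below. Loci with nucleoplasm values under 10 were tested only through chromatin.

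The wider pathway was taken from lists of 71 genes, 65 of which had a named locus and 58 passed the filter. Of these 58, 38 were lower and 11 higher in chromatin and 9 did not pass, with a median log2 fold change of -0.61. SHC1, PIK3R2, PIK3R3, AKT2, CCND2 and ID1 had no locus of their name. Among protein-coding genes 57.5% were lower, and the lists were not tested against that share. With libraries scaled to the same total the split was 29 lower and 25 higher.

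In the chain from RAS to ERK, 9 of 12 tested genes were lower and 1 higher in chromatin (median log2 fold change -1.17). The lowest were NRAS, at -1.93, whose chromatin mean was 2821 ± 315 normalized counts against 10687 ± 519 (SD, n = 3), and the kinase gene MAP2K2 at -1.66. BRAF, a RAF kinase, was higher in chromatin at 0.74, and SOS2, the paralog of SOS1, had 0.07 and did not pass (adjusted p = 0.232, limma). Among PI3-kinase and AKT genes, 7 of 10 were lower and 1 higher. The kinase gene AKT1 had -1.57 and the catalytic subunit PIK3CD -1.30.

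Among other ABL partners and adaptors, 5 of 12 were lower and 4 higher. CRK, the relative of CRKL, was lower in chromatin at -1.87, with 1078 ± 126 normalized counts against 3921 ± 94.97 (SD, n = 3), and the phosphatase gene PTPN1 was at -0.78. CBLB, the paralog of CBL, was higher at 0.72, with 1404 ± 115 against 854 ± 39.3 (SD, n = 3). RIN1, a RAS effector that binds ABL kinases, was the only gene of the lists past 4-fold in either direction, at 3.24. It passed the filter only through its chromatin libraries, so this is a description, and it rests on 66 reads in chromatin and 8 in nucleoplasm (ratio 11.05, exact 95% counting interval 5.29 to 26.7).

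Of the JAK and other STAT genes, 6 of 8 were lower and JAK2 alone was higher (0.45). STAT3, the neighbor of STAT5A, was at -1.39 and STAT6 at -0.98, and STAT2 at -0.33 was the closest to 0 of the lower genes. In the SRC family 4 of 5 were lower, with YES1 the lowest at -1.89 and SRC at -0.78. FYN was higher in chromatin, with 10492 ± 1647 normalized counts against 2663 ± 271 (SD, n = 3), a log2 fold change of 1.97 ± 0.11 (SE).

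Among genes known as STAT5 targets, 7 of 11 were lower and 3 higher. The higher genes were the feedback inhibitors SOCS1 (1.80, with means of 224 ± 29.8 and 63.4 ± 3.78 normalized counts, SD, n = 3), CISH (1.15) and SOCS3 (0.58). SOCS2, of the same family, was lower at -0.57, with 4157 ± 154 normalized counts against 6178 ± 196 (SD, n = 3). The cyclin CCND3 at -1.70 and the survival factor BCL2L1 at -1.58 were the lowest.

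**Figure D3:**
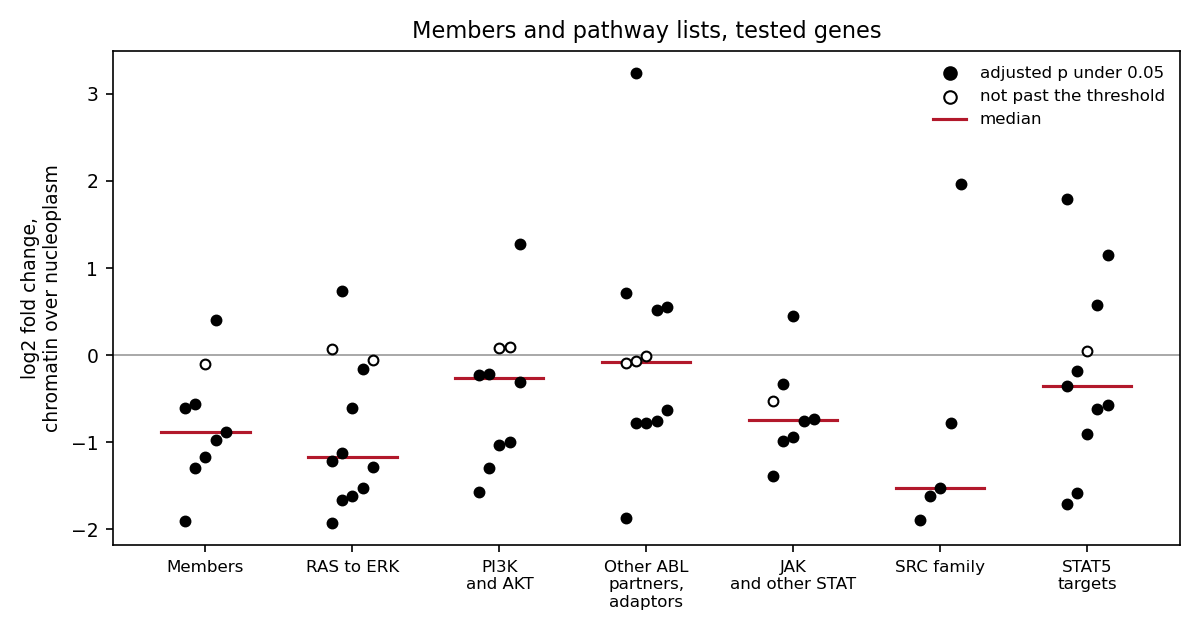
Log2 fold change of chromatin over nucleoplasm (y axis) of the 9 genes and of the tested genes of 6 pathway lists, 1 point per gene, filled where the adjusted p-value is under 0.05, with list medians as lines. Medians of all lists lie below 0, from -1.53 for the SRC family to -0.08 for other ABL partners, and RIN1 is the point at 3.24.

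Cell type and fraction labels were checked against markers. Of 8 blood cell markers 6 had a named locus and none passed the filter, with summed levels of 2.33 to 6.005 normalized counts in chromatin and 2.53 to 4.39 in nucleoplasm, and PTPRC, SPI1, MPO and GATA1 at 0 in all libraries. All 6 markers of attached cells were tested and all were lower in chromatin, with summed levels of 8570 to 9569 and 23296 to 23546. MALAT1 (log2 fold change 3.09) and PVT1 (3.11) were higher in chromatin, GAPDH (-2.35) and B2M (-2.11) lower, as the titles label the fractions.

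Long reads gave the isoforms behind these levels in chromatin. TPM, the authors' transcript abundance scaled for length and library total, was summed over the transcripts named after each gene. BCR had 6.11 TPM in replicate 1 and 4.06 in replicate 2, ABL1 1.61 and 1.48, and CRKL 56.5 and 18.5. GRB2 had 17.2 and 22.4, GAB2 24.0 and 15.8, and SOS1 12.99 and 17.1. CBL had 4.45 and 5.15, STAT5A 2.93 and 0, and STAT5B 19.6 and 5.27. With 2 libraries there is no test, and the replicates differed by 3.06 times for CRKL and 3.71 times for STAT5B.

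The order resembled that of the short reads, but BCR and ABL1 were reversed. BCR had more TPM than ABL1 in both long-read libraries (means 5.08 and 1.54). In short-read chromatin ABL1 stood above BCR (166 against 109 per kb). The cause of this difference was not tested. CRKL was highest and STAT5A and ABL1 were lowest, and the rank correlation of mean TPM with short-read chromatin counts per kb was 0.867 over the 9 genes, which share the libraries. Against 14295 protein-coding genes above 0, CRKL lay above 88.6%, BCR above 39.1% and ABL1 above 19.8%. Short-read CBL had its outlying library in chromatin replicate 2, whereas the long-read CBL values were near each other.

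Of the 70 transcripts 29 were above 0 in at least 1 library and 16 in both. For BCR the leading isoform was ENST00000359540, with 3.97 and 3.34 TPM, 65.0% and 82.2% of the gene's TPM in replicates 1 and 2. In release 44 this isoform has 22 exons and lacks exon 16, which is printed above. The canonical ENST00000305877, with 23 exons, had 0.742 and 0.556 TPM, 12.1% and 13.7%. These shares are TPM assigned to listed models, and no row can hold a fused transcript. They do not show that BCR RNA was read over its full length. The table ends both isoforms at the same base, and release 44 ends the shorter isoform earlier, so the deposited model may not be that of release 44.

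For ABL1 the ENST00000372348 transcript, which begins with exon 1b, carried all of the TPM (1.61 and 1.48). The canonical ENST00000318560, which begins with exon 1a, was listed at 0 in both libraries. The table holds no long-read counts. The study reports lower depth for long than for short reads, and unequal read totals for these replicates, so a low level of ENST00000318560 could be missed. Both isoforms share all exons from the second on, and a fused RNA would hold these exons without either first exon. The assigned TPM therefore does not show that exon 1b was read.

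CRKL TPM lay on ENST00000354336 alone. GRB2 TPM was mostly on ENST00000392562 (16.5 and 20.7), which differs from the canonical transcript in its first exon, followed by ENST00000577711 at 0 and 1.68. GAB2 was spread more widely, with the canonical ENST00000361507 at 50.1% and 41.3% and the short ENST00000528329 at 17.4% and 19.1%. SOS1 was carried by its canonical ENST00000402219 (12.99 and 8.11) and, in replicate 2 only, an assembled transcript (0 and 4.52). CBL was carried by ENST00000264033 (4.45 and 3.71), with ENST00000634586 at 0 and 1.38.

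STAT5A had ENST00000345506 at 2.93 and 0 TPM and no other transcript above 0. STAT5B was led by an assembled transcript with the ends of the canonical one (15.8 and 4.67), and ENST00000498674, annotated as a retained intron, followed with 2.33 and 0. The canonical ENST00000293328 had 1.38 and 0.596.

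**Figure D4:**
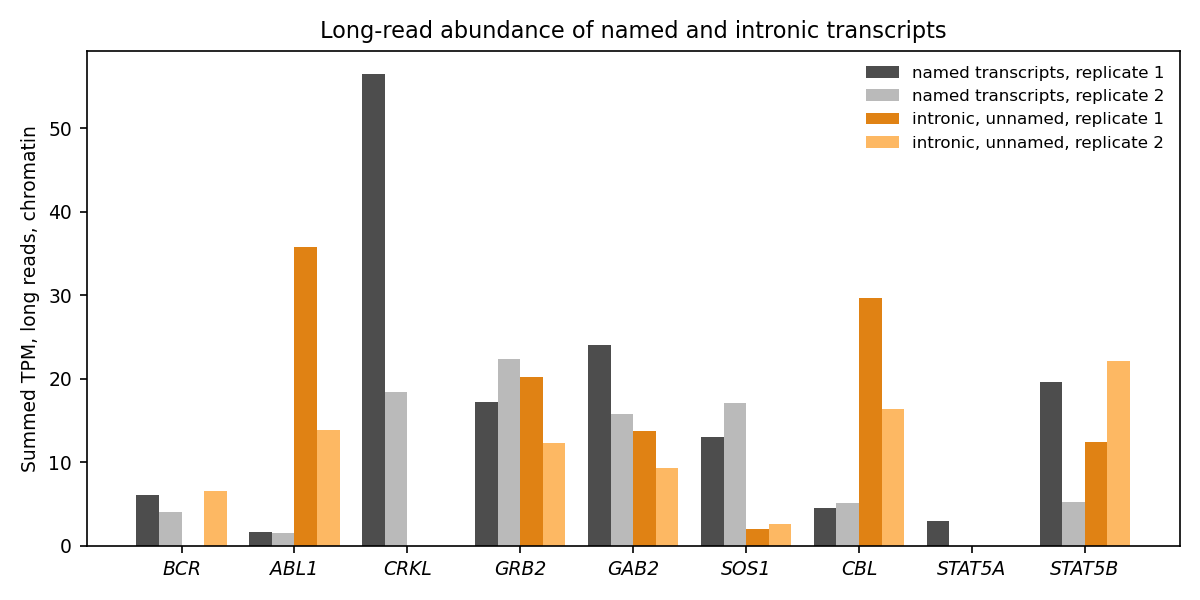
Summed long-read TPM in chromatin (y axis) of the transcripts named after each gene (gray) and of unnamed transcripts wholly within its introns on either strand (orange), for replicate 1 (dark) and replicate 2 (light). ABL1 and CBL have more intronic than named TPM in both replicates, and CRKL and STAT5A have no intronic transcripts.

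Unnamed transcripts that lay wholly within a member and off all its annotated exons numbered 44 above 0, of which 31 were above 0 in both libraries and 24 lay on the strand of the gene. They were 315 to 5349 bases long. The study reports that a large part of all its long-read transcripts lay within introns of reference genes. The share for other genes was not worked out here, so these counts are not read as particular to the members. CRKL and STAT5A, the genes with the shortest spans, had none. BCR and SOS1 had 1 each, GAB2 4, GRB2 8, CBL 9, STAT5B 10 and ABL1 11.

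The 11 in ABL1 held 35.8 TPM in replicate 1 and 13.8 in replicate 2, more than its named transcript. Of these, 8 lay on the strand of ABL1 with 26.2 and 10.3 TPM. All began and ended between 4.21 and 72.6 kb from the start of the gene, within the first 41.6% of its span, in the first intron of the exon 1b transcript and ahead of exon 1a. None lay among the exons that ABL1 gives to the fusion. The one with the highest mean, of 1458 bases at chr9:130717798-130719255, had 5.32 and 1.57 TPM, and 7 of the 11 were above 0 in both libraries. Other than the ABL1 locus itself, which spans this stretch, the short-read table listed no locus on the strand of ABL1 there.

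BCR had a single such transcript, of 429 bases in intron 16 (chr22:23296301-23296729), with 0 and 6.53 TPM, behind the exon that its leading isoform lacks. CBL had 29.6 and 16.3 TPM on its 9, GRB2 20.2 and 12.3 on 8, STAT5B 12.4 and 22.2 on 10 and GAB2 13.7 and 9.36 on 4, all of these on the opposite strand for GAB2. The deposited long-read strand is uncertain, since the library does not mark strand and whether strands had been assigned before this table was made is not given. CRKL had an unnamed transcript on the opposite strand along its whole span (chr22:20917398-20954827) at 36.9 and 8.11 TPM, and whether this is RNA of CRKL or of the other strand was not tested. Opposite-strand transcripts also lay along most of GRB2 (Jaccard index of spans 0.911) at 7.79 and 8.94 TPM and along part of SOS1 (0.546) at 8.13 and 1.53 TPM.

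**Figure D5:**
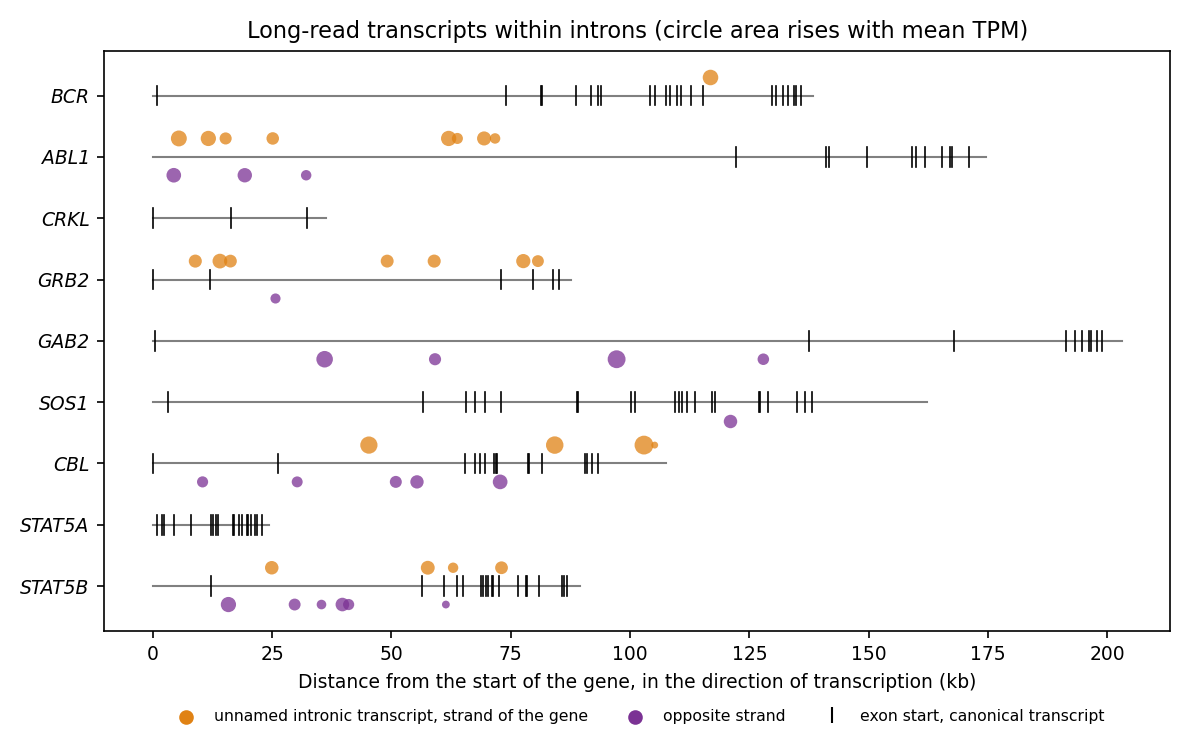
Unnamed long-read transcripts within introns of each gene, placed at their centers by distance from the gene start in kb (x axis), above the line on the strand of the gene (orange) and below it on the opposite strand (purple), with circle area rising with mean TPM and ticks at canonical exon starts. The 11 of ABL1 lie between 4.21 and 72.6 kb, ahead of all canonical exons, and BCR has 1.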

How the data were processed

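Nuclear RNA of HAP1 cells was measured in 8 libraries. The authors aligned directional single-end short reads to hg38 with HISAT2 2.1.0 (submitters' processing notes) and quantified loci with StringTie. The deposited short-read signal is a count per gene after division by a size factor from DESeq2. For long reads, whose RNA was polyadenylated by enzyme, the authors deposited TPM for each transcript, from minimap2 and StringTie. TPM keeps no depth.

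In each short-read library, 100% of values were whole multiples of the smallest (tolerance 1e-06), taken as recovered reads. These derive from coverage, so intervals cover counting error only. Differences were tested with limma 3.58.1 (R 4.3.3), on log2(normalized count + 1) with the trend option and no covariates. The 26066 genes tested reached 10 normalized counts in 3 or more libraries and spanned more than 200 bases. The pseudocount understates changes of low genes. A call needed an adjusted p-value under 0.05, and a 4-fold call also a log2 fold change beyond 2. edgeR 4.0.16 on recovered reads called 5675 genes over 4-fold higher and 2167 lower in chromatin, against 5531 and 2208 by limma. Alternatives were DESeq2 1.42.0, other scalings, pseudocounts, filters, blocks and left-out libraries. The code was tested on simulated data.

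Names, exons and sequence came from GENCODE release 44 and hg38, and overlaps from bedtools 2.31.1. The members and lists were chosen with earlier results of these data known. The text names all 9 members, their 2 most abundant transcripts, the 2 highest and 2 lowest tested genes of each list and the 3 genes most like BCR and ABL1. Some list genes that this rule names are not reported here. SOCS2, SOCS3, further isoforms, loci beside members and the windows of 50 bases were added after values were seen.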

Additional observations from a re-analysis of the deposited data

How the results depend on the processing

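Of the 9 genes, BCR, ABL1, GRB2, STAT5A and STAT5B stayed lower in chromatin and past the threshold under every alternative run. Scaling changed the most. On the same ERCC total, 9 of the 9 genes were lower in chromatin and 0 higher, list genes were 53 lower and 3 higher, and over all tested genes 3107 were called higher and 8968 lower. With libraries scaled to the same total, 5 members were lower and 2 higher (CRKL at 0.37), 25 list genes were higher, and 999 of all tested genes were called lower. CRKL had 0.0070 with DESeq2, 0.015 without chromatin replicate 2 and 0.37 on the same total, SOS1 had -0.92 on the same ERCC total, and the locus inside BCR had 0.24 on the same total, each with the sign turned. Without chromatin replicate 1, CRKL passed at -0.20. Requiring 50 normalized counts on average left 2957 genes called higher and 2 intron loci of the members in place of 4. A 2-fold minimum gave 8398 higher and 7006 lower. Leaving out 1 library at a time gave 7 to 8 members lower, 11 to 13 list genes higher and 36 to 39 lower, 4 intron loci, log2 ratio differences of 0.24 to 0.29 for ABL1 to BCR and 0.17 to 0.22 for STAT5B to STAT5A, and 5410 to 5574 higher and 1998 to 2359 lower calls over all genes. Counting only transcripts above 0 in both long-read libraries gave 16 in place of 29. Counting every transcript on the same strand within the span raised the ABL1 mean from 1.54 to 18.2 TPM. The cause of these changes was not tested.

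Replicate numbers are shared between fractions, and both fractions came from 3 independent cultures. Deviations of same-numbered libraries from their group means correlated at 0.0871, 0.0533 and 0.0626 over 26066 genes. Differently numbered libraries reached 0.0128 at most, so each library correlated best with its own number. The libraries may therefore be paired by culture, but the main fit and the permutation tests treated them as independent. The fit with the replicate block gave 5540 genes higher and 2218 lower and the same 7 and 1 members. Low-count loci are limited by depth.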
